A study of Oryctolagus cuniculus with 8 samples.

Results

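The nuclear genes of oxidative phosphorylation were examined in the retina of rabbits fed 4 diets. The rows were taken by symbol, as protein-coding genes whose name begins with NDUF (complex I), SDHA, SDHB, SDHC or SDHD (complex II), UQCR (complex III), COX4 to COX8 (complex IV) or ATP5 (complex V). This gave 52 rows among the 19293 protein-coding rows of the table. Of these, 50 reached at least 1 FPKM (fragments scaled for the length of the gene and the depth of the library) in at least 2 libraries and were tested with the 12204 protein-coding genes that did so. NDUFA2, an accessory subunit of complex I, and NDUFA4L2, the low-oxygen form of the complex IV subunit NDUFA4, were listed at 0 in all 8 libraries. Complex I had 20 tested subunits and 7 assembly factors, complex III had 3 subunits, complex IV had 8 and complex V had 9. Complex II had 3 assembly factors. RefSeq lists 94 rabbit protein-coding symbols with these prefixes, of which 43 had no row of that symbol. The core genes NDUFV1, SDHA, SDHB, UQCRFS1 and ATP5F1B were among them and were not analysed here. Of the paired tissue forms only COX4I1 and COX4I2 both had a row.

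RNA was sequenced from 8 dissected retinas of wild-type male Chinchilla rabbits of about 10 months, 2 retinas for each diet, after 6 months of feeding. ND was standard chow. HFD was the same chow with 10% lard and 0.5% cholesterol, HSD was chow with 40% sucrose, and HFSD combined both kinds of feed, with 35% sucrose in the chow beside 10% lard and 0.5% cholesterol. The labels do not say whether the 2 retinas of a diet came from separate animals, so every p-value below measures only the spread between these retinas, which may in part be technical.

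Oxidative phosphorylation makes ATP in the mitochondria. Complex I passes electrons from NADH, and complex II from succinate, to ubiquinone. Complex III hands them to cytochrome c, complex IV to oxygen, and the proton gradient built by complexes I, III and IV drives ATP synthase, complex V. Most subunits are encoded in the nucleus and imported, while the mitochondrial genome encodes core membrane subunits of complexes I, III, IV and V. In the retina, the mitochondria of photoreceptors are packed into the inner segment, and photoreceptors are known for a very high use of oxygen and ATP.

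The retinas expressed these genes strongly, at a median of 113 FPKM (mean of 8 libraries for each gene) against 13.8 FPKM over all genes tested, and 28 of 50 (56%) exceeded 100 FPKM against 7.19% of all genes. None passed the test in any comparison of the diets (limma, adjusted p under 0.05). In HFD, 44 of 50 had a higher mean log2 value than in ND, with a median log2 difference of 0.16. That difference rested on HFD replicate 1, in which 39 of the 50 genes had their highest level of all 8 libraries, and without it the median was −0.02. In the diets with sucrose, the subunits of complexes IV and V had a median log2 difference of −0.22, with no subunit past the test, and medians of −0.09 and −0.10 without HFD replicate 1. All 4 retinas with sucrose lay below all 4 without it for 6 members (12.0%, against 6.48% of all genes). They lay above for 1 (2%, against 6.39% of all genes), the assembly factor NDUFAF4 (limma adjusted p = 0.194).

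The deposited values were FPKM, from which whole fragments could be recovered for 100% of the values above 0, and the depths by which the libraries had been divided ran from 15764577 to 22785832. The smallest number of fragments behind any of the 50 genes in any library was 58, for NDUFAF2. Retinal identity was checked with marker genes fixed for each cell type. Pigment epithelium genes (8 of 8, RPE65 and TTR included) summed to 448 and 449 FPKM on ND and to between 106 and 260 FPKM in the 6 other retinas, so their level moved with every comparison against ND, and it was also lower with sucrose than without. Skeletal muscle genes (12 of 15, CKM and MYL1 included) summed to 560 FPKM in HSD replicate 2 and to between 6.28 and 8.17 FPKM elsewhere, where CKM reached at most 0.178 FPKM. Blood genes (3 of 5) ranged from 0.701 to 82.6 FPKM, with overlap between each diet and ND. Mural cell genes (7 of 7) ranged from 3.68 to 20.8 FPKM, overlapped ND in each diet, and lay higher in both HFD retinas than in all 4 with sucrose. Bipolar cell genes (5 of 5) summed to 463 and 539 FPKM on ND and to 520 and 434 FPKM on HFD. They summed to 451 and 381 FPKM on HSD and to 446 and 408 FPKM on HFSD. Against ND, 3 of 5 were lower in HFD and 5 of 5 in HSD and in HFSD, with none called by limma. Cone genes summed higher, and Müller glia genes lower, in all 4 retinas with sucrose than in both ND retinas. The cone gene OPN1SW was called in HSD (limma adjusted p = 0.0367). The part of these markers in the results below was not tested. In whole retina, fewer cells of a type and less RNA per cell cannot be told apart.

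The level of each complex was described by the FPKM of its genes summed in each library, which compares genes per length. The sums and shares cover only the genes that had a row, so they do not rank the whole complexes. Over the 8 libraries, complex IV subunits gave 34.0% of the mean sum of the 50 genes, complex V subunits 29.4%, complex I subunits 24.5%, complex III subunits 9.53%, and the assembly factors of complexes I and II 1.78% and 0.729%. The sum of all 50 was 8044 and 9100 FPKM on ND, 11115 and 8471 on HFD, 8438 and 8264 on HSD, and 7751 and 8131 on HFSD. HFD replicate 1 was above all other libraries, and HFD replicate 2 lay between the 2 ND retinas. The group means were 8572 ± 747 FPKM on ND, 9793 ± 1870 on HFD, 8351 ± 124 on HSD and 7941 ± 269 on HFSD (SD, n = 2 each). The ND retinas lay further apart than the HSD and HFSD means lay from the ND mean.

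**Figure D1:**
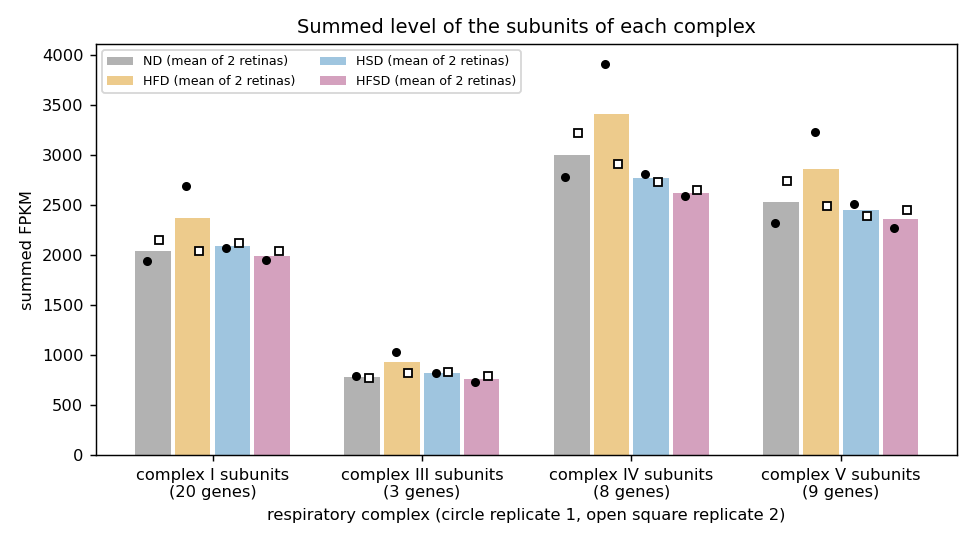
Summed FPKM (vertical axis) of the subunits of complexes I, III, IV and V (horizontal axis), with bars for the mean of the 2 retinas of a diet and points for each retina. For complex IV, HFD replicate 1 stands at 3912 FPKM and HFD replicate 2 at 2911, while the 4 retinas with sucrose lie between 2588 and 2808.

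HFD replicate 1 stood apart and has to be described before the diets are compared. Each gene's log2(FPKM + 1) was set against its own mean over the 8 libraries. The median of these deviations over the 50 genes was 0.28 in HFD replicate 1, −0.04 in HFD replicate 2, −0.08 and 0.07 on ND, −0.02 and −0.04 on HSD, and −0.10 and −0.06 on HFSD. Only HFD replicate 1 was far from 0, and 46 of the 50 genes exceeded their own mean there. Among the subunits, 36 of 40 were highest in that library, with exceptions in NDUFB4, COX4I2, ATP5MPL and ATP5PF. Of the 10 assembly factors, 3 were highest there (NDUFAF1, NDUFAF3 and NDUFAF6).

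**Figure D2:**
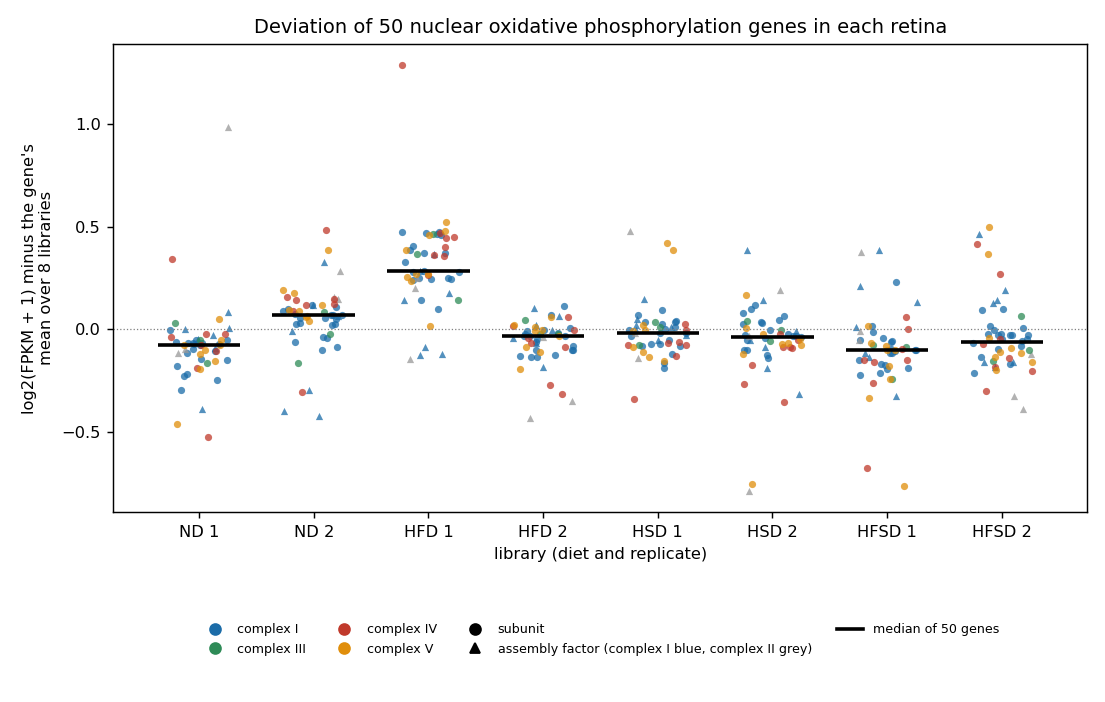
Deviation of log2(FPKM + 1) from each gene's mean over the 8 libraries (vertical axis), by library (horizontal axis), with 1 point a gene, coloured by complex, and a bar at the median. The bar of HFD replicate 1 is at 0.28, and those of the other libraries lie between −0.10 and 0.07.

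The same library was high for other short genes. Over all genes tested, 22.3% had their highest value in HFD replicate 1. Its median deviation was 0.20 among the 1529 shortest genes (recovered length 45 to 697 bases) and −0.18 among the 1525 longest (5146 to 27656 bases). The genes of oxidative phosphorylation are short, with a median of 683 bases against 1987 for all genes tested, and 27 of the 50 fell in the shortest class. Among genes up to 1000 bases that were not members, 37.3% were highest in HFD replicate 1, and among those that also averaged 50 FPKM or more, 62.2% (limits chosen after the values were seen). When the smooth trend of each library against gene length was removed, 38 of the 50 genes were highest in HFD replicate 1, against 19.6% of all genes and 34.0% of the short and abundant ones. The median deviation of the 50 genes was then 0.21. The members over 1000 bases had a median deviation of 0.25 before and 0.22 after the correction, those up to 1000 bases 0.37 and 0.19, and the 10 assembly factors 0.16 and −0.04.

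**Figure D3:**
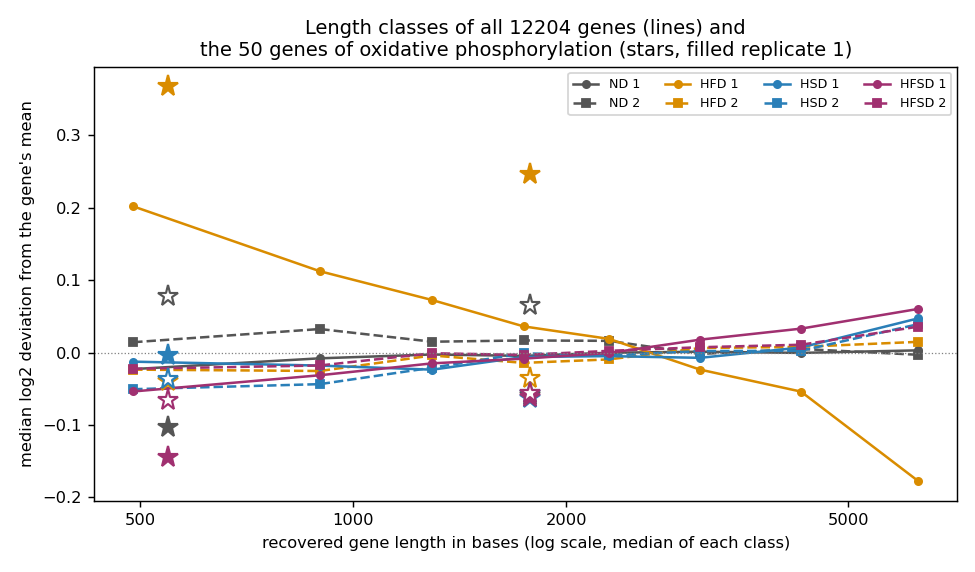
Median log2 deviation from the gene's mean (vertical axis) against gene length in bases (horizontal axis, log scale) for 8 length classes of all genes tested, 1 line a library, with stars for the oxidative phosphorylation genes up to and over 1000 bases. HFD replicate 1 falls from 0.20 in the shortest class to −0.18 in the longest, and its stars, at 0.37 and 0.25, lie above its line.

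The comparison of HFD with ND asks whether fat alone changed the retina. No member was called (0 of 50 by limma at an adjusted p under 0.05, against 0.00819% of all genes tested), and the smallest adjusted p was 0.998. No member reached an unadjusted p under 0.05 either (0, against 4.31% of all genes), and voom on the recovered fragments gave 0 by either threshold. The median log2 difference was 0.16, with 44 genes higher and 6 lower, against a median of 0.01 for all genes. It was 0.18 for complex I subunits (20 of 20 higher), 0.19 for complex III (3 of 3), 0.18 for complex IV (7 of 8) and 0.14 for complex V (8 of 9). Assembly factors were at 0.08 for complex I (6 of 7 higher) and −0.18 for complex II (3 of 3 lower). Both HFD retinas exceeded both ND retinas for 5 genes (10.0%, against 12.5% of all genes), which were NDUFA6, NDUFB3, NDUFS4, NDUFAF3 and UQCRB. For 0 members did both lie below, against 13.3% of all genes. Without HFD replicate 1 the median was −0.02, with 22 genes higher and 28 lower, and without HFD replicate 2 it was 0.33.

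For HSD, 0 of 50 members were called (0.0574% of all genes), with a smallest adjusted p of 0.646. An unadjusted p under 0.05 was reached by 2 members, SDHAF1 and NDUFAF4 (4%, against 7.20% of all genes), and by 1 with voom. As many genes were higher as lower, 25 each, and the median log2 difference was −0.00064, which was −0.11 without ND replicate 1 and 0.09 without ND replicate 2. Both HSD retinas lay above both ND retinas for 6 members (12.0%, against 19.3% of all genes) and below them for 10 (20.0%, against 19.7%). The 6 were NDUFA6, NDUFB3, NDUFS5, NDUFAF4, UQCRB and ATP5PF, and the 10 included NDUFA10, NDUFAF1, SDHAF1, UQCRC1, COX6A1, COX6B1, COX8A, ATP5F1A and ATP5MC3.

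For HFSD, 0 of 50 members were called (0.0164% of all genes), with a smallest adjusted p of 0.623. None had an unadjusted p under 0.05, against 8.07% of all genes, and 1 did with voom. The median was −0.08, with 13 genes higher and 37 lower, and was 0.0037 without ND replicate 2. Both HFSD retinas exceeded both ND retinas for 4 members (8%, against 21.6% of all genes), namely NDUFB5, NDUFAF4, NDUFAF6 and NDUFAF7. They lay below for 11 (22.0%, against 20.6%), of which 5 belonged to complex IV (COX4I1, COX5B, COX6A1, COX6B1 and COX8A). The 3 diets were compared with the same ND retinas, so their differences share the chance deviations of those 2 libraries.

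**Figure D4:**
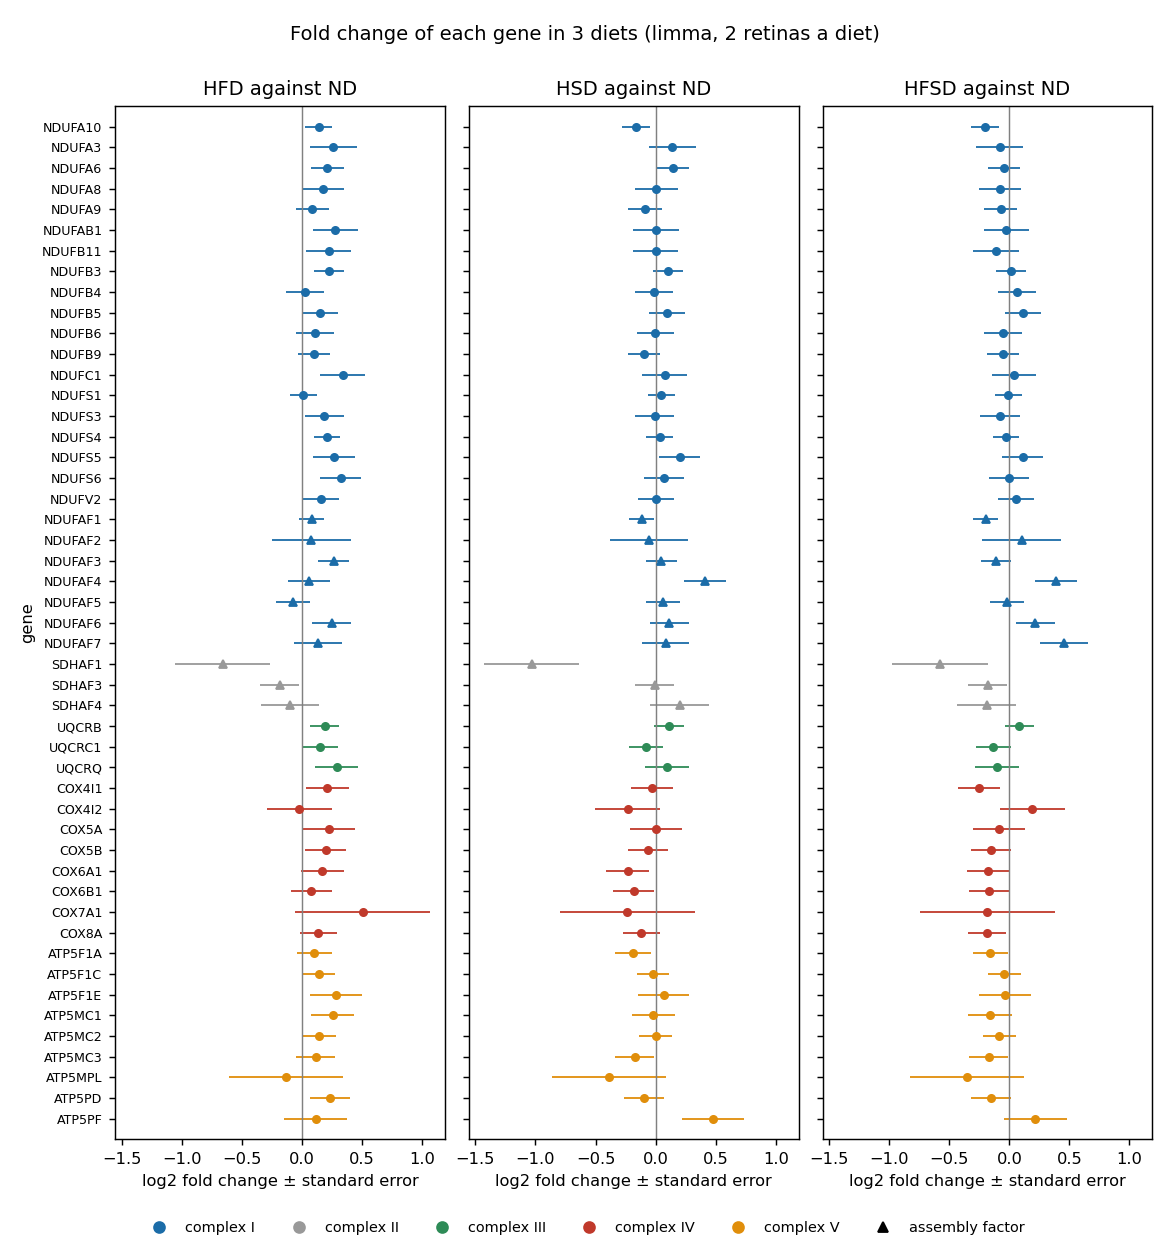
Log2 fold change against ND with its standard error (horizontal axis) for the genes tested (vertical axis, 1 of the 50 not shown), in HFD, HSD and HFSD. Most subunits lie close to 0 in all 3 panels, and SDHAF1 lies furthest to the left, at −0.66, −1.03 and −0.58.

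The 2 by 2 layout of the diets also allowed the 4 retinas with sucrose (HSD and HFSD) to be compared with the 4 without (ND and HFD). No member was called (0 of 50, against 0.344% of all genes), and the smallest adjusted p was 0.190. An unadjusted p under 0.05 was found for 3 members, NDUFA10, NDUFAF1 and NDUFAF4 (6.00%, against 18.3% of all genes), and for 5 with voom. The median difference was −0.13, with 11 genes higher and 39 lower, against −0.01 for all genes. It was −0.11 in complex I subunits (16 of 20 lower), −0.15 in complex III, −0.22 in complex IV (8 of 8 lower) and −0.22 in complex V (8 of 9 lower). Assembly factors were at 0.04 for complex I (4 of 7 higher) and −0.00082 for complex II (2 of 3 lower). Abundant short genes that were not members had a median of −0.11. After the correction for gene length these were at −0.04, the 50 members at −0.08, complex I subunits at −0.06, complex III at −0.08, and complexes IV and V both at −0.15. All 4 retinas with sucrose were below all 4 without it for 6 members (12.0%, against 6.48% of all genes) and above for 1 (2%, against 6.39%). Without HFD replicate 1 the median over the 50 genes was −0.03, with 21 higher and 29 lower. The subunit medians were then 0.0067 in complex I, −0.03 in complex III, −0.09 in complex IV and −0.10 in complex V. Cell type markers also moved with this comparison. Pigment epithelium genes summed to between 222 and 449 FPKM without sucrose and between 106 and 193 FPKM with it, and 7 of the 7 tested were lower at an unadjusted p under 0.05, with none called (limma, median log2 difference −1.29). Of the bipolar genes 4 of 5 were lower, 2 at an unadjusted p under 0.05 and none called. The rod genes SAG, PRPH2, ROM1, NRL, PDE6A and CNGA1 had a median of −0.13, with 4 of 6 lower and none called, and summed to between 14240 and 17848 FPKM without sucrose, highest in HFD replicate 1, and between 12994 and 14362 FPKM with it. Cone genes (5 of 6 symbols) summed to between 451 and 597 FPKM without sucrose and between 770.3 and 933 FPKM with it, with 5 of the 5 tested higher at an unadjusted p under 0.05 and OPN1SW and PDE6C called by limma (adjusted p = 0.0098 and 0.031). Müller glia genes (4 of 5) summed to between 2529 and 3715 FPKM without sucrose and between 1779 and 1898 FPKM with it. All 4 were lower, 2 at an unadjusted p under 0.05, and none was called. GLUL came closest (log2 difference −1.07, limma adjusted p = 0.0501). The part of these cell type markers in the members' values was not tested.

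For fat (HFD and HFSD against ND and HSD), 0 members were called (0.00819% of all genes) and 0 had an unadjusted p under 0.05 (3.20% of all genes), with 0 by voom. The median was 0.06, with 42 higher and 8 lower, and it was −0.04 without HFD replicate 1. No member separated these retinas in either direction, against 0.680% of all genes above and 0.664% below. The interaction, which asks whether the difference between HFSD and HSD departs from that between HFD and ND, called 0 members (0.00819% of all genes). An unadjusted p under 0.05 was found for NDUFAF3 (2% of members, against 3.74% of all genes), and 0 members with voom. Its median was −0.20, with 43 of 50 genes below 0, and −0.04 without HFD replicate 1.

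By the study's own fold limits on group means of FPKM + 1, HFD had 1 member over the upper limit, COX7A1 (2%, against 1.38% of all genes), and 1 under the lower, SDHAF1 (2%, against 1.16%). HSD had 0 over (1.76% of all genes) and SDHAF1 under (3.54%). HFSD had 0 over (1.52%) and 0 under (3.54%). The fold of SDHAF1 was 0.624 on HFD, 0.481 on HSD and 0.666 on HFSD. These counts turned on single retinas: without ND replicate 1 no member of HFD was past a limit, and in HFSD 1 or 2 members were past a limit whenever 1 ND or HFSD retina was left out.

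Complex I subunits differed in how even they were across retinas. NDUFS1, a core subunit that carries several iron-sulphur clusters of the electron input arm, was at 90.1 and 99.0 FPKM on ND, 102 and 88.7 on HFD, 96.8 and 98.3 on HSD, and 94.2 and 93.5 on HFSD. Its 8 values overlapped in every comparison, and its highest was 1.15 times its lowest. NDUFA6, an accessory subunit of the LYR motif family, was the most abundant of the complex I genes tested. It was at 207 and 204 FPKM on ND, 264 and 216 on HFD, 219 and 236 on HSD, and 190 and 210 on HFSD. Its HFD and HSD retinas were all above ND, with log2 differences of 0.21 ± 0.13 and 0.14 ± 0.13 (SE), which were 0.07 without HFD replicate 1 and 0.09 without HSD replicate 2. NDUFA10, another accessory subunit, was at 37.7 and 41.1 FPKM on ND, 46.1 and 41.0 on HFD, 35.7 and 34.6 on HSD, and 32.3 and 36.1 on HFSD. It was lower in all 4 retinas with sucrose than in the 4 without, by a log2 difference of −0.25 ± 0.08 (SE; limma adjusted p = 0.190).

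The largest positive differences of complex I subunits in HFD were those of NDUFC1, a small membrane arm subunit, and NDUFS6, which is added late with the electron input module. NDUFC1 was at 78.0 and 101 FPKM on ND, 134 and 94.5 on HFD, 92.6 and 94.5 on HSD, and 92.4 and 89.8 on HFSD. NDUFS6 was at 90.3 and 107 FPKM on ND, 145 and 105 on HFD, 104 and 103 on HSD, and 93.3 and 103 on HFSD. In both genes HFD replicate 1 was the highest library and HFD replicate 2 lay between the ND retinas. The log2 differences of 0.34 ± 0.19 and 0.32 ± 0.17 became 0.09 and 0.09 without HFD replicate 1. NDUFS5, another small accessory subunit, was at 114 and 131 FPKM on ND, 175 and 124 on HFD, 138 and 143 on HSD, and 137 and 127 on HFSD. Only its HSD retinas were both above ND, by a log2 of 0.20 ± 0.17 (limma adjusted p = 0.830), which was 0.10 without ND replicate 1 and 0.30 without ND replicate 2.

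The assembly factors of complex I did not move as one. NDUFAF3 and NDUFAF4 act together in building the ubiquinone-binding module. NDUFAF3, the most abundant, was at 73.3 and 77.9 FPKM on ND, 101 and 81.8 on HFD, 81.1 and 75.4 on HSD, and 71.1 and 68.8 on HFSD, so that HFD lay above ND and HFSD below it. NDUFAF4 was at 13.6 and 10.3 FPKM on ND, 12.6 and 12.1 on HFD, 13.9 and 18.4 on HSD, and 16.2 and 15.4 on HFSD. The 4 retinas with sucrose were all higher than the 4 without, although ND replicate 1 and HSD replicate 1 were close. Its log2 difference with sucrose was 0.37 ± 0.12 (SE; limma adjusted p = 0.194), and 0.28 to 0.47 with each retina left out in turn.

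NDUFAF1, part of the machinery that assembles the membrane arm, went the other way from NDUFAF4. It was at 23.0 and 25.1 FPKM on ND, 26.2 and 24.9 on HFD, 22.6 and 21.7 on HSD, and 21.2 and 20.5 on HFSD, with all 4 sucrose retinas below the others (log2 difference −0.20 ± 0.07, limma adjusted p = 0.228). NDUFAF7, a methyltransferase needed for assembly, was at 5.63 and 3.67 FPKM on ND, 4.87 and 5.33 on HFD, 5.33 and 4.48 on HSD, and 7.16 and 6.14 on HFSD. Both HFSD retinas exceeded all others, by a log2 of 0.46 ± 0.20 over ND (limma adjusted p = 0.623), and this was 0.20 without ND replicate 2. NDUFAF6, needed early in assembly, was at 13.1 and 10.4 FPKM on ND, 16.0 and 12.3 on HFD, 12.5 and 12.9 on HSD, and 13.1 and 14.3 on HFSD. NDUFAF5, which hydroxylates an arginine of NDUFS7, ranged from 10.1 to 12.7 FPKM and NDUFAF2, a late-acting factor, from 6.25 to 12.1 FPKM, both with overlap in every comparison.

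Complex II was represented only by factors that mature its subunits. SDHAF1 and SDHAF3 help to insert the iron-sulphur clusters of SDHB, and SDHAF4 binds SDHA before it joins SDHB. SDHAF1 was at 27 and 14.6 FPKM on ND, 15.8 and 9.46 on HFD, 11.8 and 7.16 on HSD, and 17.3 and 9.76 on HFSD. ND replicate 1 was the highest library by a wide margin, and in each diet replicate 1 was above replicate 2. The 2 HSD retinas were the only pair of a diet that lay wholly below ND. The log2 difference was −1.03 ± 0.40 on HSD (SE; limma adjusted p = 0.646), and −0.61 without ND replicate 1. The mean of the 2 ND retinas was 20.8 ± 8.74 FPKM (SD, n = 2). SDHAF4 was at 35.7 and 43.3 FPKM on ND, 44.6 and 30.2 on HFD, 54.3 and 37.7 on HSD, and 38.4 and 30.7 on HFSD, and SDHAF3 ranged from 8.62 to 12.0 FPKM. Neither separated any diet from ND.

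Of the 3 complex III genes, UQCRB and UQCRQ encode small subunits beside cytochrome b, and UQCRC1 encodes a large core protein on the matrix side. UQCRQ, the most abundant, was at 423 and 370 FPKM on ND, 573 and 409 on HFD, 418 and 427 on HSD, and 351 and 387 on HFSD. HFD replicate 1 stood above all others, and the log2 difference in HFD was 0.29 ± 0.18 with it and 0.05 without it. UQCRB was at 287 and 316 FPKM on ND, 356 and 333 on HFD, 330 and 321 on HSD, and 303 and 336 on HFSD, with both HFD and both HSD retinas above ND. UQCRC1 was at 79.0 and 87.1 FPKM on ND, 106 and 80.7 on HFD, 77.8 and 78.9 on HSD, and 77.7 and 73.7 on HFSD. Its 4 retinas with sucrose were all below the other 4 (log2 difference −0.18 ± 0.10, limma adjusted p = 0.368), by −0.09 without HFD replicate 1.

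Complex IV held the most abundant member of all, COX4I1, the ubiquitous form of the regulatory subunit 4. It was at 912 and 1086 FPKM on ND, 1299 and 1024 on HFD, 981 and 969 on HSD, and 819 and 852 on HFSD. Both HFSD retinas were the lowest of the 8, and the log2 difference from ND was −0.25 ± 0.18 (limma adjusted p = 0.758), and −0.13 without ND replicate 2. Its other form, COX4I2, known for induction at low oxygen, was at 26.9 and 16.9 FPKM on ND, 25.5 and 17.3 on HFD, 19.9 and 16.2 on HSD, and 21.1 and 28.4 on HFSD. The ratio of COX4I1 to COX4I2 was 33.8 and 64.5 on ND, 51.0 and 59.3 on HFD, 49.2 and 59.6 on HSD, and 38.8 and 30.03 on HFSD. The ND values spanned all others but HFSD replicate 2, which lay below them, so the pair showed no difference beyond the spread of the ND retinas in HFD or HSD.

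COX5A and COX5B encode subunits around the catalytic core. COX5A was at 165 and 204 FPKM on ND, 260 and 176 on HFD, 191 and 177 on HSD, and 196 and 152 on HFSD, and COX5B ranged from 183 to 278 FPKM. Both were highest in HFD replicate 1. COX6A1, the non-muscle form of a peripheral subunit, was at 530 and 596 FPKM on ND, 734 and 545 on HFD, 511 and 447 on HSD, and 481 and 512 on HFSD. COX8A, a small membrane subunit, was at 413 and 463 FPKM on ND, 547 and 423 on HFD, 406 and 400 on HSD, and 397 and 373 on HFSD. In both genes every retina with sucrose was below every one without, by a log2 of −0.29 ± 0.13 (limma adjusted p = 0.275) and −0.22 ± 0.11 (limma adjusted p = 0.330). Without HFD replicate 1 these differences were −0.18 and −0.13. COX6B1, which sits where the monomers of the complex IV dimer meet, ranged from 464 to 498 FPKM in the sucrose retinas and from 492 to 660 FPKM in the others, with overlap.

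COX7A1, the muscle form of subunit 7A, had the widest range of the 50 genes, its highest value being 4.01 times its lowest. It was at 30.01 and 61.6 FPKM on ND, 108 and 34.9 on HFD, 34.4 and 38.6 on HSD, and 26.9 and 52.8 on HFSD. HFD replicate 1 was far above the rest, and the log2 difference of 0.51 ± 0.56 on HFD became −0.30 without it. In HSD replicate 2, which held muscle transcripts, COX7A1 was 38.6 FPKM against 34.4 in HSD replicate 1, and both lay between the 2 ND retinas.

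In complex V, ATP5F1A, the alpha subunit of the catalytic head, was the most abundant of the genes tested. It was at 595 and 698 FPKM on ND, 745 and 644 on HFD, 563 and 568 on HSD, and 576 and 580 on HFSD. The sucrose retinas were close together and all below the others (log2 difference −0.22 ± 0.10, limma adjusted p = 0.30). ATP5F1E, the epsilon subunit of the central stalk, was at 437 and 513 FPKM on ND, 720 and 463 on HFD, 507 and 484 on HSD, and 441 and 485 on HFSD. Only HFD replicate 1 departed, and the log2 difference of 0.29 ± 0.22 on HFD was −0.03 without it.

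The c-ring of complex V is made of a single mature protein encoded by ATP5MC1, ATP5MC2 and ATP5MC3. ATP5MC2 was the highest of the 3, at 233 to 306 FPKM, followed by ATP5MC1 at 162 to 268 FPKM and ATP5MC3 at 59.9 to 88.0 FPKM. Each was highest in HFD replicate 1, and both HSD retinas were below ND for ATP5MC3 only. ATP5PD, the peripheral stalk subunit d, was at 355 and 399 FPKM on ND, 515 and 381 on HFD, 346 and 356 on HSD, and 349 and 326 on HFSD.

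The last pair of complex V genes, ATP5PF and ATP5MPL, had a wide spread within diets. ATP5PF, the coupling factor of the peripheral stalk, was at 96.8 and 139 FPKM on ND, 135 and 117 on HFD, 175 and 150 on HSD, and 106 and 173 on HFSD. Both HSD retinas were above ND (log2 difference 0.48 ± 0.26, limma adjusted p = 0.762), by 0.22 without ND replicate 1 and 0.74 without ND replicate 2. ATP5MPL, a small proteolipid of the membrane part, was at 130 and 164 FPKM on ND, 150 and 118 on HFD, 168 and 73.8 on HSD, and 73.4 and 178 on HFSD. Its HSD retinas lay far apart and so did its HFSD retinas, and the sign of its difference from ND changed in every diet when single retinas were left out. Its recovered length was 168 bases, the shortest of the 50, and at least 214 fragments lay behind each value.

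**Figure D5:**
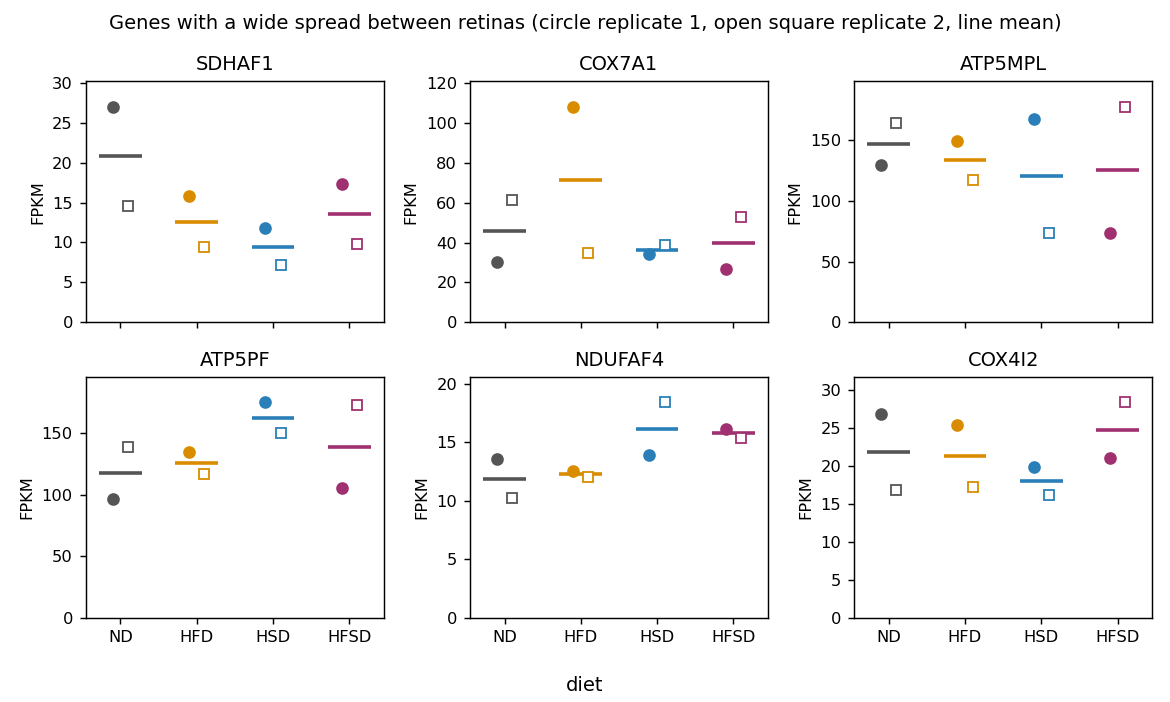
FPKM (vertical axis, from 0) of 6 genes with a wide spread between retinas, chosen after their values were seen, by diet (horizontal axis), with both retinas and a line at their mean. SDHAF1 is highest in ND replicate 1, at 27 FPKM, COX7A1 in HFD replicate 1, at 108 FPKM, and the 4 sucrose retinas of NDUFAF4 lie from 13.9 to 18.4 FPKM.

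The spread between the 2 retinas of a diet was as wide for these genes as for others, at a median log2 SD of 0.170 against 0.167 over all genes tested when pooled over diets. Within HFD it was 0.264 for the members and 0.160 for all genes. In HSD it was 0.0505 for the members against 0.0999, and in HFSD 0.0887 against 0.0926.

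The other genes of the pathway gave no call either. Of 43 electron carriers and assembly factors on the list, 24 had a row, all were tested, and 0 were called in any comparison. Their median log2 difference was 0.15 on HFD, with 20 higher and 4 lower, and 0.04 without HFD replicate 1. It was −0.10 with sucrose, with 7 higher and 17 lower, and −0.06 without ND replicate 2. In HFD 3 of the 24 had an unadjusted p under 0.05, against 4.31% of all genes. With sucrose 2 of the 24 did, COX17 and COA7, against 18.3% of all genes. COX17, the copper chaperone of complex IV, was at 321 and 385 FPKM on ND, 558 and 436 on HFD, 353 and 316 on HSD, and 361 and 299 on HFSD. Both of its HFD retinas lay above ND, HFD replicate 2 included (log2 difference 0.49 ± 0.18, limma adjusted p = 0.998), by 0.31 without HFD replicate 1. COA7, another complex IV assembly factor, was at 7.51 and 6.32 FPKM on ND and 9.33 and 10.2 on HFD (log2 difference 0.44 ± 0.15, limma adjusted p = 0.998). TACO1, which activates translation of a mitochondrially encoded complex IV subunit, went the other way, at 14.3 and 13.6 FPKM on ND and 9.05 and 8.36 on HFD (log2 difference −0.62 ± 0.20, limma adjusted p = 0.998). Of 14 regulators of mitochondrial genes, 9 had a row and 0 were called. Their median was −0.03 on HFD and 0.12 without HFD replicate 1. With sucrose it was 0.04, with 7 higher and 2 lower, and 0.02 to 0.09 with 1 retina left out. Against 18.3% of all genes, 2 of the 9 regulators had an unadjusted p under 0.05. These were GABPA, a subunit of a transcription factor of nuclear mitochondrial genes (log2 difference 0.34 ± 0.11, limma adjusted p = 0.194), and TFAM, which packages and transcribes mitochondrial DNA (0.25 ± 0.10, limma adjusted p = 0.238). TFAM lay between 10.7 and 11.8 FPKM in the 4 retinas with sucrose and between 8.37 and 10.3 FPKM in the others. Of all genes, 6.39% were separated in this direction. PPARGC1A, the coactivator known for driving mitochondrial biogenesis, stayed between 1.61 and 2.33 FPKM in all libraries.

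For the 13 protein genes of the mitochondrial genome, another library was the highest. Their FPKM summed to between 34728 and 49516 and was highest in HSD replicate 2, the library that held the muscle transcripts, while HSD replicate 1 was at 35140. Their median log2 difference with sucrose was 0.07, with 10 higher and 3 lower, and −0.04 without HSD replicate 2, with 4 higher and 9 lower. In HFSD 13 of 13 had a higher mean log2 value than in ND, with a median of 0.14, which was 0.05 without ND replicate 1 and 0.27 without ND replicate 2. None of the 13 was called in any comparison.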

How the data were processed

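RNA of 8 retinas was sequenced as TruSeq libraries. The authors trimmed the reads after FastQC, aligned them (TopHat2, rabbit genome), kept reads with a single placement and deposited FPKM per gene, computed with their own R script, for 25666 rows. Dropping reads with several placements can lower genes that have near-identical copies, and how far was not tested. The genome build and annotation are not given in the sources used here, so no coordinates or sequences are printed.

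From the deposited FPKM, gene lengths, depths and whole fragments were recovered from the steps of the values (tolerance 0.02 fragments). In ND replicate 2 and HFD replicate 1 the summed fragments (18161589 and 20430617) exceed the depth recovered (17706804 and 19970643), and which total that depth is was not determined. Intervals from fragments would cover counting error only. Limma (version 3.58.1, R 4.3.3) was fitted on log2(FPKM + 1), which understates the change of low genes, with a mean-variance trend and 1 model of 4 diets. Tests were two-sided, and the Benjamini-Hochberg adjustment ran over the 12204 genes tested. The study's fold limits were 1.54 and 0.65. Of value columns, 0 lacked a sample. Figures were drawn with Python 3.11.15.

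The rule for genes named in the text took members with an adjusted p under 0.05 or an unadjusted p under 0.01, the most abundant of each complex, the 5 largest rises and falls in each diet, members past the fold limits or below the filter, paired tissue forms, and a fixed list of core subunits, of which NDUFS1, COX4I1, COX5A and COX5B had a row. Others are named as counted or after their values were seen. Members and gene lists were chosen with earlier results of these data known. Of the 52 symbols, 51 matched RefSeq names (mOryCun1.1). Scripts were tested on simulated data. The alternatives were another pseudocount, filter, scaling, moderation and gene-length correction, voom, fits on the libraries compared only, the replicate number as a block, and each retina left out in turn. No source says that the replicate numbers pair the retinas. The values of 1 member and of 1 marker gene are not reported here.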

Additional observations from a re-analysis of the deposited data

How the results depend on the processing

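Under every alternative run, 0 members were called in any of the 6 comparisons, and the smallest adjusted p of a member was 0.0895 by limma (SDHAF1 in HSD, with the replicate number as a block). Over all genes, voom called 20 for sucrose in place of 42 and 1 for HSD in place of 7. When retinas were left out singly, the median log2 difference of the members ranged from −0.018 to 0.33 in HFD and from −0.36 to −0.039 for the interaction, the values nearest to 0 being those without HFD replicate 1. With HFD replicate 1 left out and gene length corrected, an alternative chosen after seeing the data, these medians were 0.0012 and −0.058, and COX7A1 and ATP5F1E in HFD had log2 differences of −0.27 and −0.0035. Across the alternatives apart from single retinas left out, this one included, the median for sucrose ranged from −0.13 to −0.0077. The median for fat ranged from −0.032 to 0.057 across them. The median for sucrose was −0.24 without HFD replicate 2 and −0.03 without HFD replicate 1, and that for fat 0.15 and −0.04. Signs also changed for named genes when single retinas were left out. In HFD the log2 difference ranged from −0.38 to 0.0076 for SDHAF3, −0.31 to 0.038 for ATP5MPL, −0.37 to 0.18 for SDHAF4, −0.30 to 1.31 for COX7A1 and −0.031 to 0.60 for ATP5F1E. In HSD it ranged from −0.97 to 0.20 for ATP5MPL, −0.74 to 0.27 for COX7A1, −0.56 to 0.090 for COX4I2 and −0.057 to 0.46 for SDHAF4. In HFSD it ranged from −0.98 to 0.28 for ATP5MPL, −0.14 to 0.57 for ATP5PF and −0.13 to 0.51 for COX4I2. The count of members past the fold limits ranged from 0 to 2 in HFD, 1 to 2 in HSD and 1 to 2 in HFSD with 1 retina left out (2, 1 and 0 with all retinas), and was 1 in HFD with an equal upper quartile, where COX7A1 dropped out. The cause of these changes, apart from the retina left out, was not tested.

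With the replicate number as a block, 0 members were called and the medians were as before (0.16 in HFD, −0.13 for sucrose), while of all genes 25 were called for sucrose in place of 42, 4 for HFSD in place of 2 and 0 for the interaction in place of 1. No source says that a number marks a shared animal or batch. The correlations of the deviations of same-numbered retinas ran from −0.16 to 0.08, which cannot exclude a batch shared by number. With 2 retinas a diet, the smallest standard error of a diet's log2 difference from ND among the 50 genes was 0.10.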
